A study of Mus musculus with 46 samples.

Results

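The nuclear genes for the subunits of oxidative phosphorylation were followed through bulk RNA sequencing of mouse liver. Genes were taken by symbol, with the prefixes Nduf, Sdha to Sdhd, Uqcr, Cox4 to Cox8 and Atp5, leaving out symbols of pseudogenes. Of 55416 genes in the count tables, 102 had such a symbol and 91 had a mean of at least 1 CPM (the count scaled to the library's total) over all 46 libraries. These 91 are 77 subunits and 14 genes that the same prefixes take in: 8 complex I assembly factors (Ndufaf), 4 complex II assembly factors (Sdhaf), the supercomplex factor Cox7a2l and the coupling factor Atp5s. The limit fell between Cox7a1, at 1.13 CPM, Ndufa4l2, at 1.66 CPM, and Cox6b2, which was left out at 0.990 CPM. Of the 9 pseudogene symbols left out, Ndufb1-ps had 108.7 CPM and each of the others was below 1 CPM.

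The livers were snap frozen, came from male mice and fall into 10 groups. In 8 groups the mice were of the Plvap line, on the strain C57BL/6JBomTac, with the allele Plvaptm1.1Salm and the transgene Tg(Lrat-cre)1Rshw, whose Cre is driven by the promoter of Lrat, a gene of hepatic stellate cells. Plvap encodes the diaphragm protein of fenestrae and caveolae. The same allele and transgene string stands in the labels of the littermate controls, so which of its elements a control carried cannot be read from them. The line was studied on chow after a 12 h fast (6 controls, 5 knockouts), on chow after a 10 h fast and 2 h of refeeding (4 and 4), after 6 weeks of western diet (5 and 4) and after 6 weeks of high-fat diet (5 and 5), both diets ending with a 12 h fast. The remaining 2 groups were whole-body Cav1 knockouts (STOCK Cav1tm1Mls/J, 4 livers) and wild types of another strain, C57BL/6N (4 livers), on chow after a 6 h fast. Cav1 encodes caveolin-1, the coat protein of caveolae, and in this pair the knockout and the strain cannot be told apart.

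Oxidative phosphorylation passes electrons from NADH (complex I) and succinate (complex II) over complexes III and IV to oxygen. Complexes I, III and IV pump protons across the inner mitochondrial membrane, and complex V, the ATP synthase, uses that gradient to make ATP. Most subunits are encoded in the nucleus and a smaller set in mitochondrial DNA, and hepatocytes, which burn fatty acids in the fasted state, are rich in both. The title of the series places stellate-cell Plvap beside the use of fatty acids by the liver, and the comparisons ask whether transcripts of this machinery differed between knockouts and controls. In bulk RNA, fewer cells of a type and less RNA per cell cannot be told apart.

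The labelled knockouts had less of the targeted transcript. Plvap stood at 20.0% of the control mean in fasted, 17.8% in refed, 18.9% in western-diet and 25.3% in high-fat knockouts, with edgeR adjusted p of 1.33e-07, 0.0327, 5.08e-06 and 2.72e-05. Cav1 stood at 16.5% of wild type in its knockouts (edgeR adjusted p = 0.0015). Libraries held 6656342 to 23311539 counts, of which the 91 genes took 1.24% to 2.48%. Hepatocyte markers were abundant in all libraries, with 51700 to 115000 summed CPM over 7 genes. Skeletal muscle markers summed to 50.1 CPM or less and fat markers to 101 CPM or less.

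Promoter windows, 250 bases before to 50 bases after the start site, were found in RefSeq (build GRCm38.p6) for 77 of the 91 genes, 75 by symbol and 2 by an older symbol. Short cores of 4 factors known to act on respiratory genes were searched on both strands. NRF1, a master regulator of respiratory subunits, has the core GCGCATGCG, which stood in 13% of the matched windows, against 1.95% of all 27025 genes and 4.01% of the 9367 other genes with at least 1 CPM. The YY1 core AAGATGGCG stood in 10.4% of the windows, against 1.64% and 3.69%. The core CCGGAAGT of GABPA, an ETS factor, stood in 6.49%, against 4.31% and 9.29%. The site TCAAGGTCA of ERRA, the oestrogen-related receptor that works with PGC-1 coactivators, stood in 2.6%, against 0.466% and 0.299%. At least 1 of the 4 stood in 31.2% of the windows, against 7.93% and 16.2%. The YY1 core stood in 6 of the 39 windows of complex I and 2 of the 15 of complex V. The NRF1 core stood in 4 of 39 windows of complex I, 2 of 5 of complex III, 1 of 11 of complex IV and 3 of 15 of complex V. A match of letters is a description and was tied to no measurement of binding.

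The matches in well-expressed genes are shown with up to 10 bases on each side, 5′ to 3′ on the gene's strand, with the core in capitals. The number beside each is the position of the core's first base, the start site counted as 0. The first 3 hold the NRF1 core and the next 3 the GABPA core, read on either strand. In Cox6a1 and Uqcrc1 the capitals span overlapping NRF1 cores of opposite strands.
Cox6a1 (chr5:115349101-115349130, minus strand, -162): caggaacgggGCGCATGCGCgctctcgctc
Uqcrc1 (chr9:108936668-108936697, plus strand, 30): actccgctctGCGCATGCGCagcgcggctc
Uqcr11 (chr10:80406808-80406836, minus strand, -5): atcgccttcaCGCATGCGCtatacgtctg
Cox8a (chr19:7217605-7217632, minus strand, -6): tttccgaaatACTTCCGGctcgggcgtc
Uqcrh (chr4:116075064-116075091, minus strand, -11): agtatgccgcACTTCCGGccaggtcgcc
Uqcr11 (chr10:80406870-80406897, minus strand, -66): tctctcctccCCGGAAGTagatgtcaat
Uqcr11, a small complex III subunit, carries both the NRF1 and the GABPA core. The next pair holds the ERRA site and the last 3 the YY1 core.
Atp5g3 (chr2:73911360-73911388, minus strand, -52): tgttacaaagTGACCTTGAgcgtcttccc
Sdhd (chr9:50603800-50603823, minus strand, 36): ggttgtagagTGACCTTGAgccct
Atp5j (chr16:84835046-84835074, minus strand, -88): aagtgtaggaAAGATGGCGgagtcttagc
Atp5j2 (chr5:145191500-145191528, minus strand, 23): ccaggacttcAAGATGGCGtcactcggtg
Ndufs4 (chr13:114388045-114388069, minus strand, 35): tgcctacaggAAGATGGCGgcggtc

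Atp5g2 encodes a copy of the membrane ring subunit c of complex V, and the same mature protein comes from Atp5g1 and Atp5g3. Its window holds the NRF1 core on both strands, overlapping, at positions -42 and -41 (capitals). It is shown because, before any adjustment for gene length, Atp5g2 had unadjusted p under 0.05 in the same direction in most knockout comparisons. The windows of Cox7a2l and Sdha are shown because these were the only ones of the 91 called in a knockout comparison under the test as specified. They hold none of the 4 cores.
Atp5g2 (chr15:102670998-102671297, minus strand): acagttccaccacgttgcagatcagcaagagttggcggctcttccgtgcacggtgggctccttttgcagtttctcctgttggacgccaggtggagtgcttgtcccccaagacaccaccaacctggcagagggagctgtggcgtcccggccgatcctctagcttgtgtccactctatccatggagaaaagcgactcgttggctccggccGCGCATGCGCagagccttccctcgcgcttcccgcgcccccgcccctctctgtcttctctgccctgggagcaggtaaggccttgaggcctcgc
Cox7a2l (chr17:83514284-83514583, minus strand): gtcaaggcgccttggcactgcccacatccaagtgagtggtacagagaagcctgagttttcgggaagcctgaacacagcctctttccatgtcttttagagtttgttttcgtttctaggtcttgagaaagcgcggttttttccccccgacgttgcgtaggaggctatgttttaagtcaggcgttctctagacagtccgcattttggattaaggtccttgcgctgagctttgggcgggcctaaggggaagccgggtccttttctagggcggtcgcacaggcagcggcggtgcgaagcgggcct
Sdha (chr13:74350191-74350490, minus strand): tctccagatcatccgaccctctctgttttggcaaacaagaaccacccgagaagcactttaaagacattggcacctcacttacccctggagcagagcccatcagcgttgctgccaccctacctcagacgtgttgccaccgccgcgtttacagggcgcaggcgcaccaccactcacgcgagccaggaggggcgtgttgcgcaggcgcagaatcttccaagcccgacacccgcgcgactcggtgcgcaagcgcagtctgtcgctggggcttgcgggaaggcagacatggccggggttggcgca

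Levels were compared between genes only as mean CPM per kilobase of the deposited gene length. In complex I they ran from 284 CPM per kilobase for Ndufb9 to 6.55 for Ndufab1, the acyl carrier protein. Complex II ran from 255 for Sdhd, a membrane anchor, to 51.5 for Sdhc, its partner anchor. Complex III ran from 460 for Uqcrq to 53.5 for the core protein Uqcrc1. The spread within complex IV was 365-fold, from Cox6a1 at 559 CPM per kilobase to Ndufa4l2 at 1.53. Complex V ran from 297 for Atp5a1, the alpha subunit of the catalytic head, to 11.3 for Atp5g2. The medians over subunits were 61.8, 89.2, 215, 256 and 132 CPM per kilobase for complexes I to V, and the assembly factors of complexes I and II had medians of 8.04 and 4.03. The deposited length sums exons over isoforms, and with the length of 1 principal transcript the highest genes of complexes IV and V became Ndufa4 (1090 CPM per kilobase) and Atp5e (856), while Ndufb9, Sdhd (255) and Uqcrq (553) were again the highest of theirs.

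**Figure D1:**
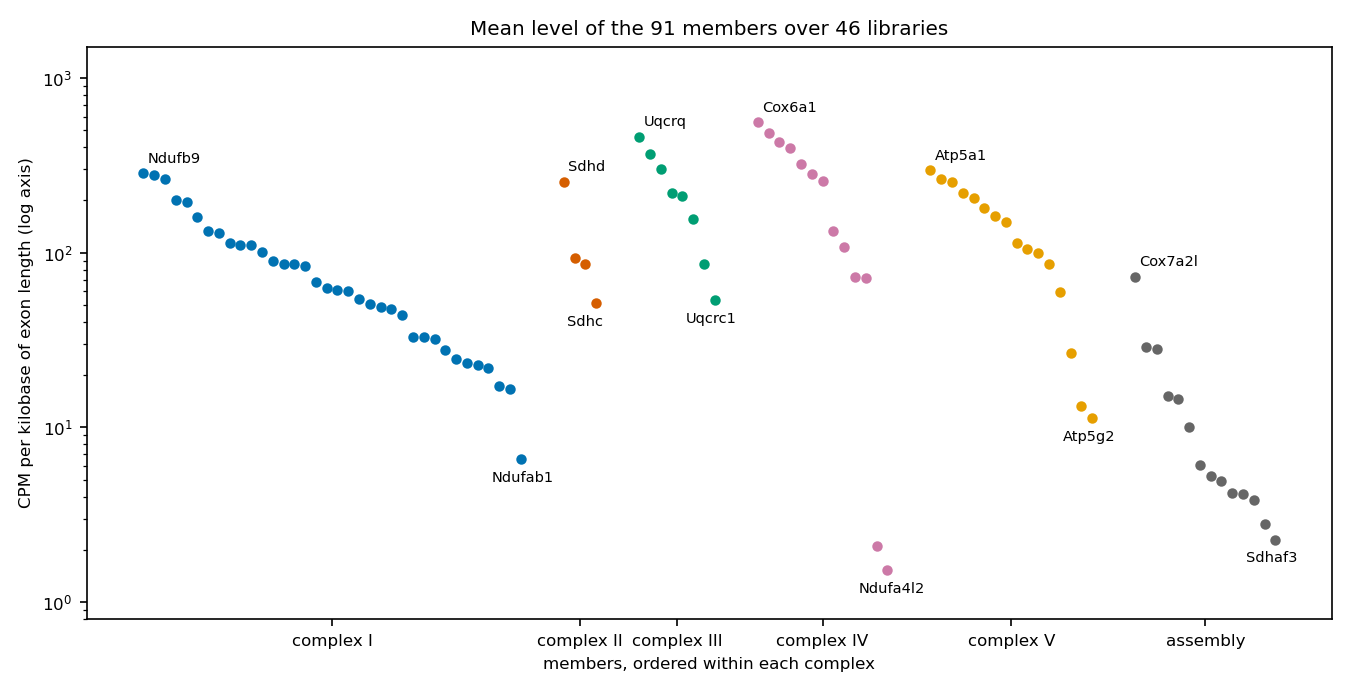
Mean level of each of the 91 genes over all 46 libraries, in CPM per kilobase of the deposited gene length on a log axis, by complex, with assembly factors apart. Complexes III and IV have the highest medians (215 and 256), and Cox7a1 and Ndufa4l2 of complex IV lie below all other subunits.

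Complex IV has pairs of isoforms in which one form is made in most tissues and the other in particular tissues or states, such as muscle, lung, testis or low oxygen. In each pair the common form was the abundant one. As for the 1 CPM limit, CPM here is scaled by library total alone, without TMM. The medians over libraries were 563 CPM for Cox4i1, 187 for Cox6b1, 243 for Cox7a2, 266 for Cox8a and 665 for Ndufa4, and Cox6a1 ran from 272 to 629 CPM. The partner forms had medians of 0.0914 CPM (Cox4i2), 0 (Cox6a2), 0.905 (Cox6b2), 0.929 (Cox7a1), 0.062 (Cox8b) and 1.62 (Ndufa4l2). Among the partners, single libraries held much of the signal. Cox6a2, a striated-muscle form, had 47 counts in all libraries together and 17 of them in western-diet knockout B, the library with the highest summed muscle markers (Acta1 228, Ckm 92 and Mylpf 79 counts). Cox8b, known from brown fat and muscle, had 133 counts, of which 31 were in high-fat control A and 26 in western-diet control A, the pair of libraries with the highest summed fat markers (Ucp1 102 and 50 counts). Western-diet control A was also the highest library for Cox4i2, Cox6b2 and Cox7a1.

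Summed over the 77 subunits, levels overlapped between knockouts and controls in all 5 knockout comparisons. The sums were 18400 ± 1330 CPM (SD, n = 6) in fasted controls and 18550 ± 1200 (n = 5) in fasted knockouts, 101% of control. Refed livers had 18510 ± 2470 and 16540 ± 4660 (n = 4 each), 89.4% of control. On western diet the sums were 18200 ± 2250 (n = 5) and 18620 ± 1030 (n = 4), and on high-fat diet 16460 ± 1240 and 17030 ± 1140 (n = 5 each), 102% and 103% of control. The spread between replicates was widest among refed knockouts, whose libraries ran from 12680 to 23220 CPM. Split by complex, the knockout sums lay between 87.7% and 111% of control in the Plvap line, the lowest being complex IV in refed livers and the highest complex II on high-fat diet, and in each case libraries of the groups overlapped.

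The wild types of the Cav1 experiment had the lowest sum of the 10 groups, 11390 ± 558 CPM (n = 4), and their knockouts had 13550 ± 4350 (n = 4). Complexes I, III, IV and V were lower in the C57BL/6N wild types than in the fasted controls of the Plvap line, while complex II was not (1152 ± 55.2 against 1074 ± 55.5 CPM). Within complex II, Sdha, the flavoprotein that oxidises succinate, stood at 636 CPM against 325 CPM, Sdhb at 195 against 192, Sdhc at 146 against 173. Sdhd had 163 to 185 CPM in the wild types and 336 to 440 CPM in the fasted controls. Over the 91 genes, 67 were lower in the wild types with no overlap of libraries, Sdha alone was higher, 23 overlapped, and the median log2 ratio was -0.76. Over all 12211 genes with a mean of at least 1 CPM, 27.9% were lower and 22.8% higher with no overlap, and the median log2 ratio was -0.06. Within the 91, the log2 ratio had a Spearman rho of 0.13 with the deposited length and 0.36 with the principal transcript's length. No length trend was taken out of these ratios. The largest gaps were in Ndufb4, a small membrane-arm subunit of complex I (7.77 against 69.1 CPM), Atp5l (24.4 against 101 CPM) and Cox6c (163 against 619 CPM), while Cox7b had 104 to 124 against 352 to 547 CPM. In contrast, the catalytic subunits of complex V overlapped, with Atp5b at 1170 against 1050 CPM and Atp5a1 at 1010 against 905. Strain, hours of fasting and count table differ together here and cannot be told apart, so no test was made.

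**Figure D2:**
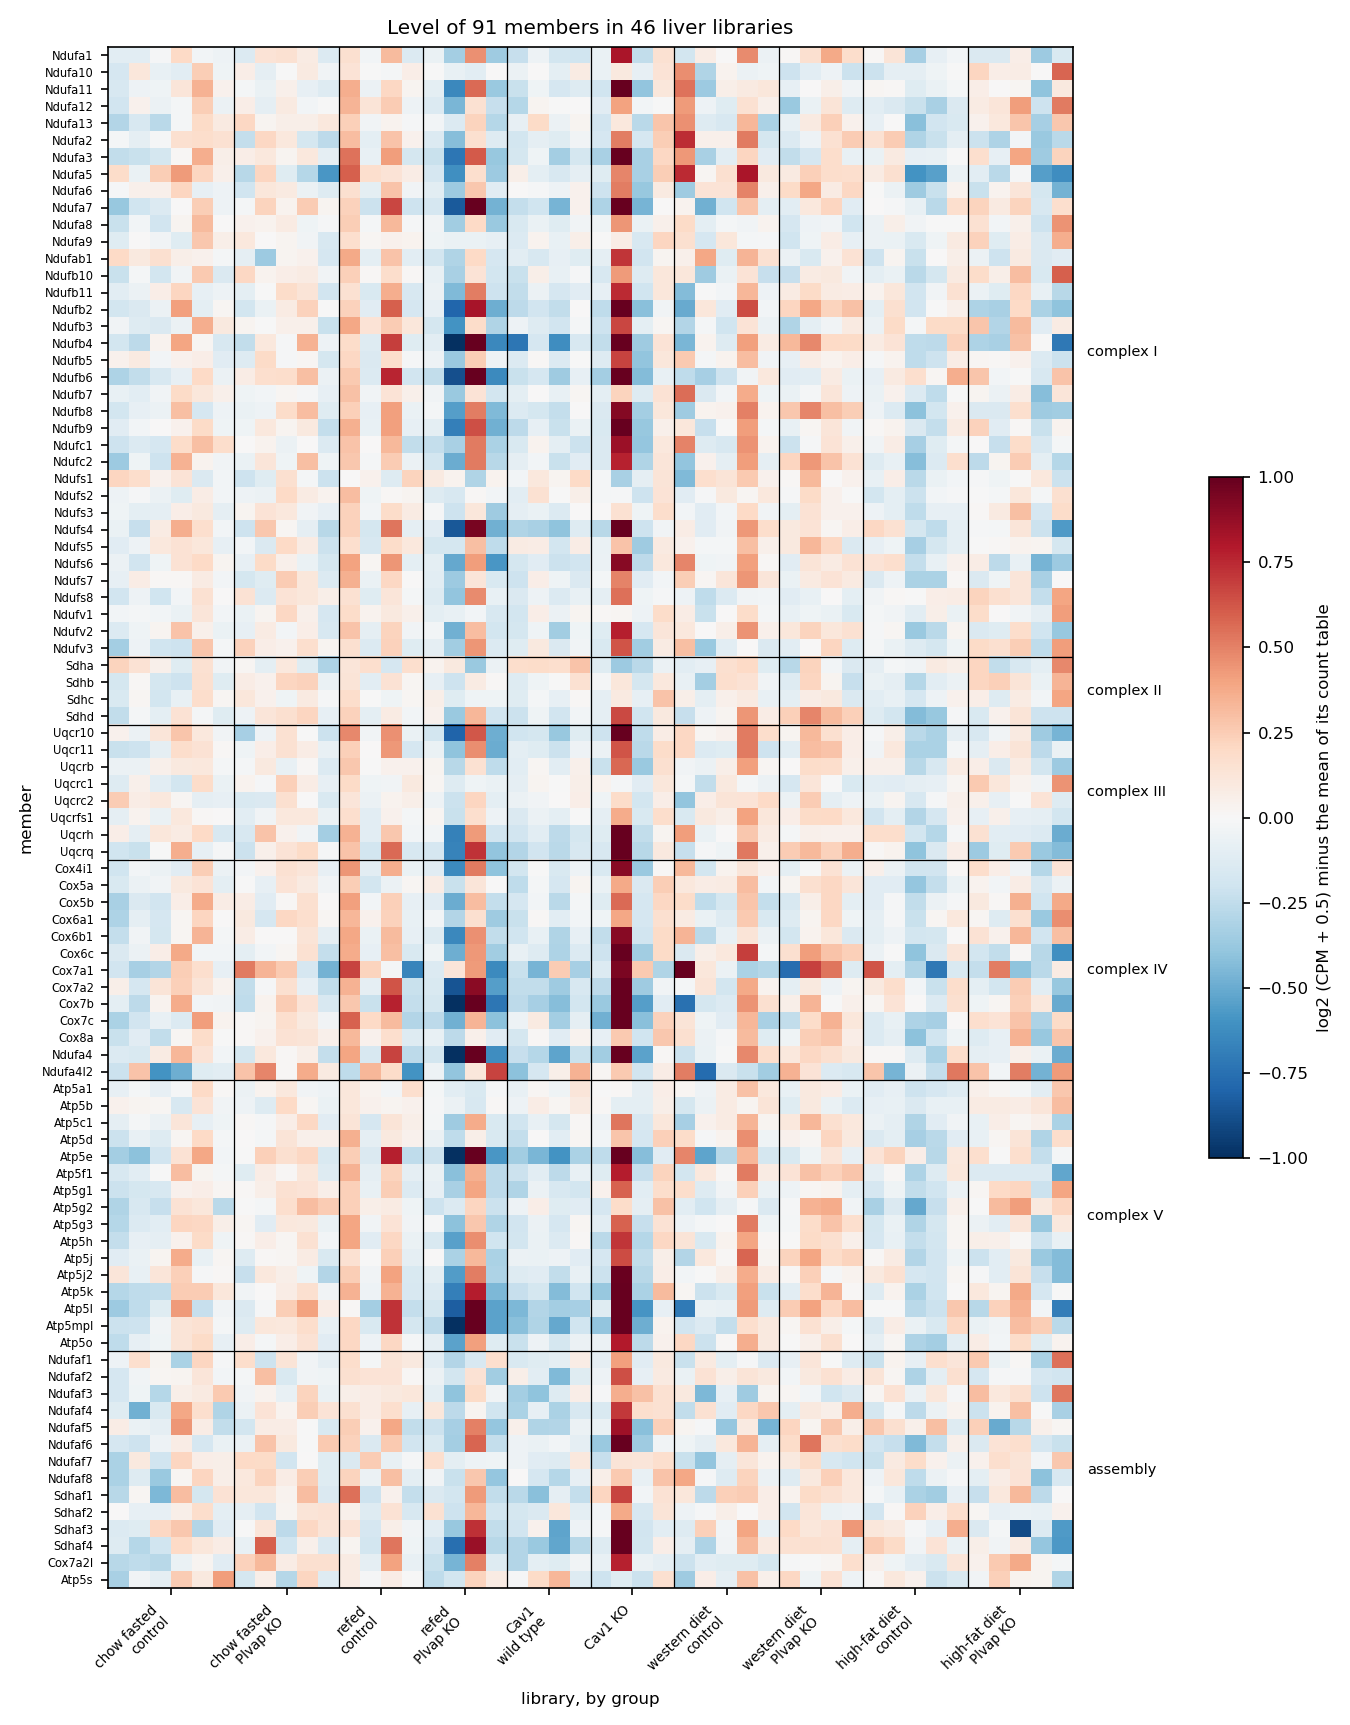
Log2 CPM of each of the 91 genes in each library, as the difference from the gene's mean over the libraries of its table, with genes ordered by complex and libraries by group. Most rows move together within a library: Cav1 knockout B is high for 86 genes, refed knockout C for 81, and refed knockouts B and D for 3 and 4.

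Plvap loss on chow after the fast was accompanied by 1 call among the 91 genes. Cox7a2l, which helps join complexes III and IV into supercomplexes, had 99.2, 101, 99.2, 115, 123 and 111 CPM in the 6 controls, with a median of 106. The 5 knockouts had 141, 151, 127, 135 and 135 CPM. Every knockout was above every control. The log2 fold change was 0.34 ± 0.08 (SE, 95% interval 0.17 to 0.52, edgeR adjusted p = 0.0383). By that rule 1 of 91 genes was called, beside 2.25% of the 12840 genes tested (1.13% in the higher direction). With each library's trend over gene length taken out, the log2 fold change was 0.28 (edgeR adjusted p = 0.0605) and 0 of the 91 were called, beside 2.02% of all genes. The call was also lost without any 1 of 7 of the 11 libraries, controls A, B and C and knockouts A, B, D and E (edgeR adjusted p up to 0.103), with the log2 fold change between 0.31 and 0.38. Albumin rose in the same knockouts (log2 fold change 0.96, edgeR adjusted p = 0.000582), and the 7 hepatocyte markers summed to 58300 to 72300 CPM in controls and 92600 to 114000 CPM in knockouts. Of the 7, 5 had a positive log2 fold change, with a median of 0.15. The part of albumin in the result was not tested.

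Cox7a2l lies on chromosome 17 at 83809347 to 83824759, minus strand (GRCm39). On western diet it had 100 to 108 CPM in controls and 116 to 130 CPM in knockouts, again without overlap, but the log2 fold change of 0.18 ± 0.09 was not called (edgeR adjusted p = 0.53). In refed livers the log2 fold change was -0.12 ± 0.21 and on high-fat diet 0.17 ± 0.09. The fasted and refed effects differed by -0.47 (95% interval -0.81 to -0.12), which missed the threshold over all genes (edgeR adjusted p = 0.482).

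Among the other fasted livers' genes with the smallest p, none passed. Ndufa5, a peripheral-arm subunit of complex I, had controls at 62.9 to 88.5 CPM and knockouts at 43.9 to 76.6 CPM (log2 fold change -0.38 ± 0.12, edgeR adjusted p = 0.107), and its groups overlapped. It was called lower by edgeR with the trend over the principal transcript's length (-0.47, adjusted p = 0.0473), where Cox7a2l was not (adjusted p = 0.0594). It was called too without a filter on low counts (-0.39, edgeR adjusted p = 0.0101) and without knockout B (-0.50, edgeR adjusted p = 0.0459). Ndufb6 had a log2 fold change of 0.23 ± 0.10, but 66.8% of its length is shared with exons of another gene. Ndufa4l2, a low-level relative of Ndufa4, had 0.54 ± 0.22, and Atp5g2 had 0.26 ± 0.11. At unadjusted p under 0.05 there were 7 of the 91 (7.69%), beside 17.6% of all genes. Medians were near 0 in each complex: 0.00 for I, 0.09 for II, -0.03 for III, 0.03 for IV and 0.05 for V. The median 95% interval reached 0.20 to each side, and for 87 of the 91 genes the whole interval lay within a log2 fold change of 0.5 of 0.

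Refed livers gave no call. No gene of the 91 passed, beside 0.0227% of the 13228 genes tested, and with the length trend taken out 0 passed beside 0.0302%. Refed libraries of the same replicate letter deviated together, though no label states a pairing. With the letter as a block 0 of the 91 passed beside 0.227%. Log2 fold changes were nevertheless mostly negative: 5 of 91 were above 0, with medians of -0.16 for complex I, -0.08 for II, -0.17 for III, -0.20 for IV and -0.13 for V, while 51.1% of all genes tested were positive. The length trend moved the median over the 91 genes from -0.15 to -0.10. With it 9 of 77 subunits and 5 of 14 assembly factors were positive. With the block, 16 subunits had an unadjusted p under 0.05, all in the lower direction, 10 of them in complex I, 4 in IV and 2 in III. That is 17.6% of the 91, beside 14.4% of all genes, and with the length trend added to the block it was 8.79% beside 13.5%. Ndufa5 was the gene with the smallest p: controls had 84.6, 62.4, 61.04 and 58.6 CPM and knockouts 49.4, 36.3, 62.6 and 43.0 CPM. Only knockout C reached the range of the controls, and the log2 fold change of -0.47 ± 0.18 was not called (edgeR adjusted p = 0.596, and 0.174 with the block). Ndufb3 had -0.41 ± 0.16. Precision was lower than in the fasted livers: intervals reached 0.39 to each side in the median, and 34 of 91 lay within 0.5 of 0.

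Refed libraries of both groups lay to either side of their table's mean. Of the 91 genes, 81 were above that mean in refed knockout C, and 11, 3 and 4 were above it in refed knockouts A, B and D. Among the refed controls, 89 and 83 were above it in A and C, and 22 and 23 in B and D. Atp5e, the epsilon subunit of complex V, had 401, 222, 1100 and 310 CPM in the knockouts and 552, 421.1, 796 and 390 CPM in the controls, and its log2 fold change was -0.07 ± 0.51. Left out in turn, the 8 libraries gave 0 calls each and medians over the 91 genes between -0.35 and -0.06. The lowest came without knockout C, where 58 of the 91 had an unadjusted p under 0.05, all lower, beside 2017 of 13444 genes tested. Without any 1 of the other 7 there were 0 to 4.

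On western diet no gene of the 91 was called, beside 0.0148% of the 13533 genes tested, and beside 0.0148% again with the length trend. The smallest p belonged to Atp5g2, with controls at 17.6, 16.5, 17.8, 18.9 and 17.1 CPM and knockouts at 18.8, 24.3, 24.7 and 18.6 CPM. Knockouts B and C were above every control, while A and D overlapped them (log2 fold change 0.29 ± 0.12, edgeR adjusted p = 0.448). The median over the 91 genes was 0.02, and 52 were positive. Cox7a2l, Sdhd (0.25), the membrane-domain subunit Atp5l (0.36) and the complex I subunit Ndufc2 (0.27) came next by p, and none passed.

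On high-fat diet no gene of the 91 was called by edgeR, beside 0.281% of the 13533 genes tested, and with the length trend 0 beside 0.429%. Atp5g2 was again first by p. Controls had 15.05, 17.2, 13.2, 16.1 and 19.7 CPM, and knockouts had 19.0, 23.8, 25.6, 20.4 and 22.1 CPM. Only control E lay within the range of the knockouts. The log2 fold change was 0.45 ± 0.12 (95% interval 0.21 to 0.69, edgeR adjusted p = 0.0843), and DESeq2 called it (adjusted p = 0.0298). Ndufa12, an accessory subunit of complex I, had 0.40 ± 0.13, Sdhb, the iron-sulfur subunit of complex II, 0.30 ± 0.11, and Atp5g1 0.28 ± 0.10. Sdhaf3, an assembly factor for Sdhb, pointed the other way with -0.44 ± 0.16 (edgeR adjusted p = 0.21). At unadjusted p under 0.05 there were 12 of the 91 (13.2%), 11 of them higher, beside 13.8% of all genes.

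**Figure D3:**
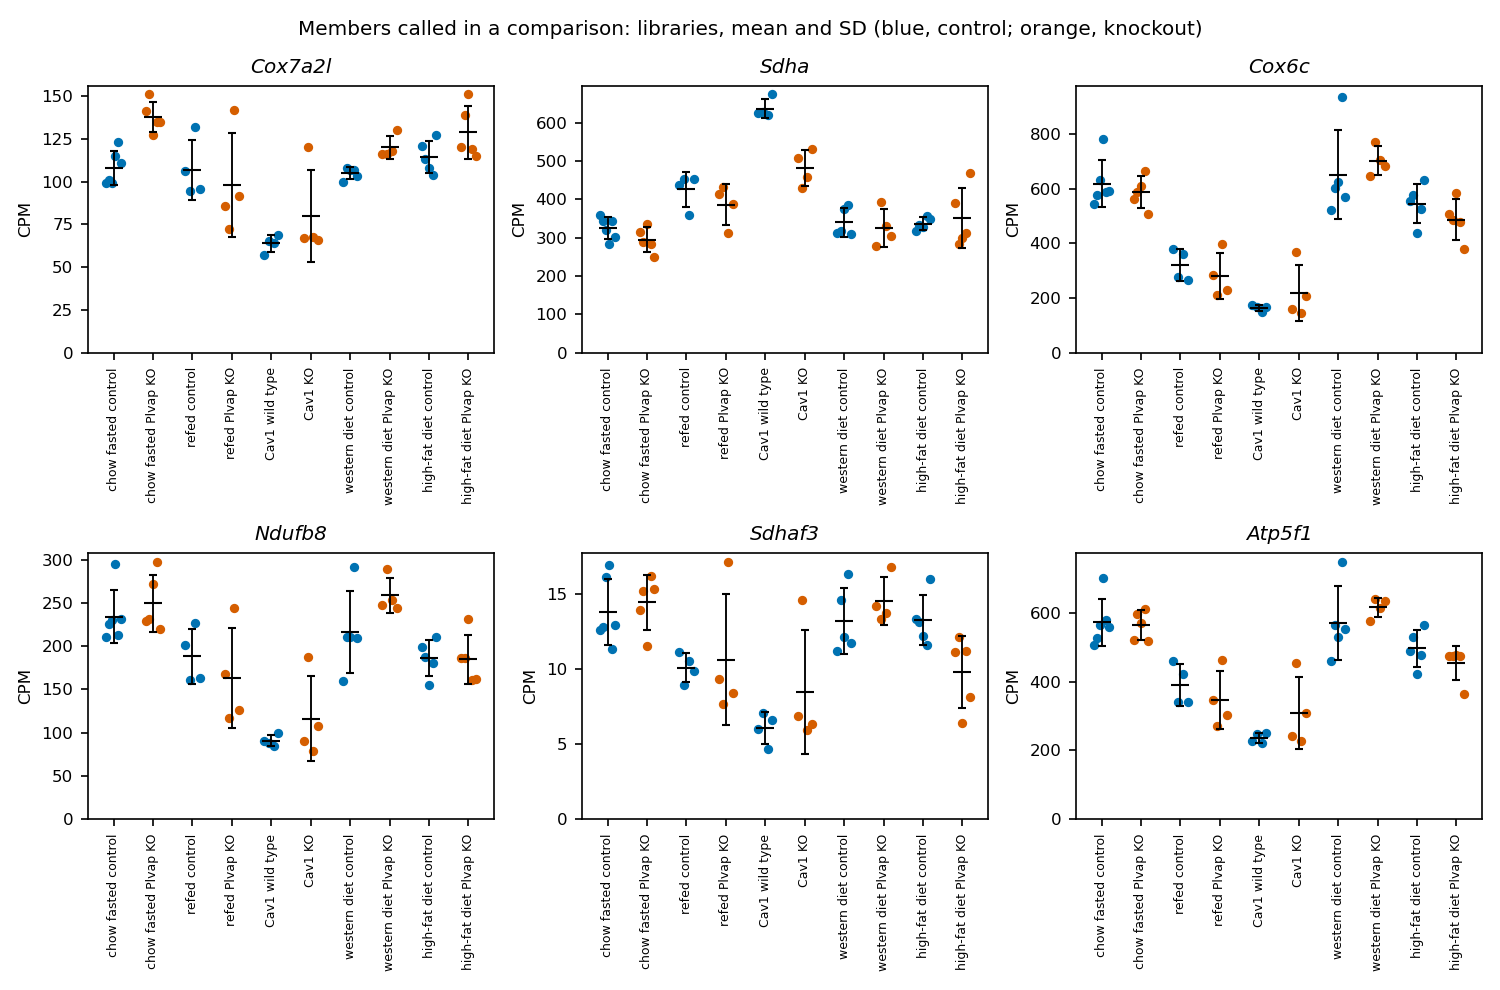
CPM of the 6 genes called in a comparison, 1 point per library with the group mean and SD, in all 10 groups. Cox7a2l separates in fasted livers (99.2 to 123 against 127 to 151 CPM), Sdha separates in the Cav1 experiment (619 to 674 against 429.2 to 532 CPM), and Cox6c, Ndufb8, Sdhaf3 and Atp5f1 were called between the diets in knockouts.

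Before any adjustment for gene length, Atp5g2 had unadjusted p under 0.05 in the same direction in most of the 5 knockout comparisons, 3 (fasted, western and high-fat diet). Atp5g1 followed with 2 higher (high-fat diet and Cav1) and Ndufa5 with 2 lower (fasted and refed). Of all genes, 17.6%, 9.79% and 13.8% had an unadjusted p under 0.05 in the 3 comparisons of Atp5g2. The share of all genes reaching 3 was not computed. With the length trend, 0 of the 16 complex V subunits were higher at that p in fasted livers. In refed livers the log2 fold change of Atp5g2 was -0.16. At a mean of 18.9 CPM, Atp5g2 was the scarcest of the 3 subunit c genes, beside 130 CPM for Atp5g1 and 573 CPM for Atp5g3. The difference of the Plvap effect on Atp5g2 between refed and fasted livers was -0.42 (95% interval -0.75 to -0.08, edgeR adjusted p = 0.523), and between the diets it was 0.16 (95% interval -0.19 to 0.51).

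Whether the Plvap effect differed between conditions was tested for every gene. None of the 91 passed in any of the 4 differences by edgeR, and the shares of all genes called were 0.0% for high-fat minus western diet, 0.0% for refed minus fasted, 0.0% for western diet minus fasted and 0.0% for high-fat diet minus fasted. At unadjusted p under 0.05 there were 5, 5, 0 and 3 of the 91 (5.49%, 5.49%, 0.0% and 3.3%), beside 11.4%, 8.37%, 3.07% and 8.18% of all genes. DESeq2 also called 0 of the 91 in each. Ndufa12 had the largest difference between the diets that reached an unadjusted p under 0.05 (0.61, 95% interval 0.22 to 1.00, edgeR adjusted p = 0.275). Without refed knockout C, the refed minus fasted difference was called for 2 of the 91, Ndufb6 and Cox7a2l, both lower, beside 0.117% of all genes.

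In Cav1 knockouts, Sdha was lower. The wild types had 624, 628, 619 and 674 CPM, and the knockouts had 508, 429.2, 457 and 532 CPM. No knockout reached the lowest wild type. The log2 fold change was -0.39 ± 0.09 (95% interval -0.59 to -0.19, edgeR adjusted p = 0.0374), and -0.41 with the length trend taken out (edgeR adjusted p = 0.0284). This was 1 of 91 called, beside 4.68% of the 12978 genes tested (2.11% in the lower direction), and with the length trend 1 beside 4.86%. The call remained without knockout B or D and was lost without any other single library (adjusted p up to 0.105), with the log2 fold change between -0.44 and -0.35. Sdha lies on chromosome 13 at 74470373 to 74498399, minus strand (GRCm39). The knockout mean of 481 CPM was still above the fasted controls of the Plvap line (325 CPM). Clec4g, an endothelial marker, fell in the same knockouts (log2 fold change -0.68), and the 6 endothelial markers summed to 215 to 243 CPM in wild types and 147 to 215 CPM in knockouts. Their part in the result was not tested.

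The other log2 fold changes were mostly positive in Cav1 knockouts, and 1 library stood apart. Of the 91 log2 fold changes, 85 were positive, with a median of 0.29, while 53.9% of all genes tested were positive. In knockout B 86 of the 91 genes were above the table's mean, by 0.678 on the log2 scale in the median. Atp5e had 144, 134, 121 and 147 CPM in the wild types and 154, 1040, 137 and 170 CPM in the knockouts. Ndufb4 had 6.1, 9.15, 6.58 and 9.23 CPM and then 8.66, 47.3, 7.98 and 11.48 CPM. In both genes knockout B stood far above the other 7 libraries, and the log2 fold changes of 1.48 ± 0.71 and 1.30 ± 0.62 were not called (edgeR adjusted p = 0.319 and 0.316). Without knockout B the median over the 91 genes was 0.06, and with the length trend taken out it was 0.08 with 60 positive. Sdhaf1, an assembly factor that shares 69.6% of its length with exons of another gene, had a log2 fold change of 0.60 ± 0.19. The complex I assembly factors Ndufaf4 (0.49 ± 0.16) and Ndufaf3 (0.43 ± 0.15) and the subunit c gene Atp5g1 (0.39 ± 0.14) came next by p, and none passed (edgeR adjusted p of 0.122 to 0.167). At unadjusted p under 0.05 there were 6 of the 91 (6.59%), beside 18.6% of all genes. Intervals were wide, 0.40 to each side in the median, and 27 of 91 lay within 0.5 of 0. Myom2, a skeletal muscle gene, had 0 counts in every wild type and at least 156 counts in each knockout. Among other muscle markers, each knockout had 0 counts of Acta1, at most 1 of Ckm and at most 2 of Myh4. Mylpf had 7 to 12 counts in knockouts, beside 5 to 16 in wild types. The part of Myom2 in the result was not tested.

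**Figure D4:**
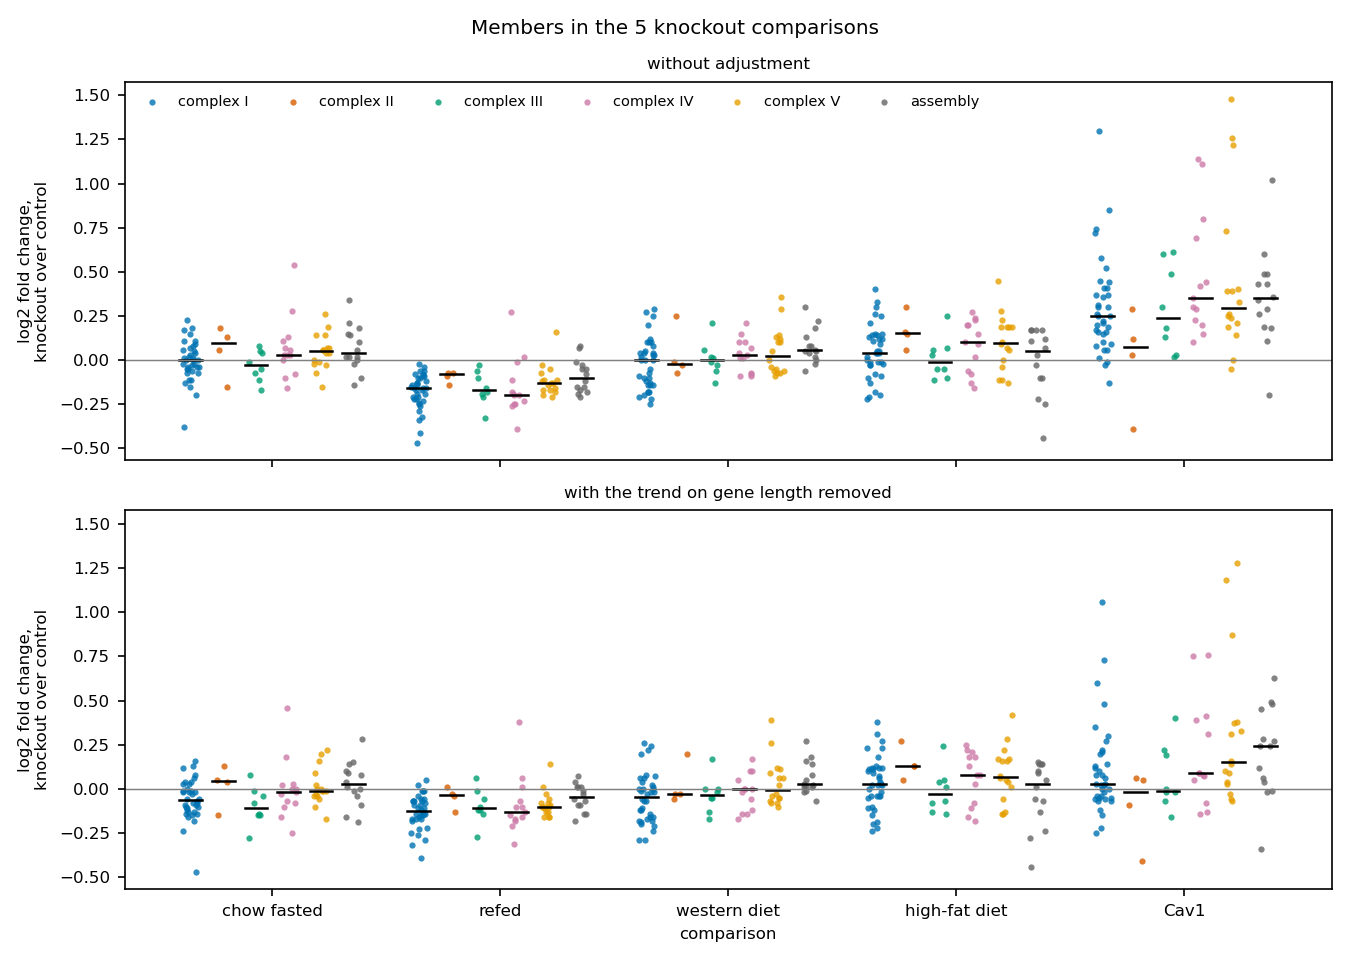
Log2 fold change of each of the 91 genes, knockout against control, in the 5 knockout comparisons, by complex, before and after each library's trend over gene length was taken out. The Cav1 median moves from 0.29 to 0.08 and the refed median from -0.15 to -0.10, and the other medians stay between -0.02 and 0.06.

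The diets were compared within their shared table. Among controls, western against high-fat diet gave 0 calls of 91 beside 2.09% of all genes, with 73 positive and a median of 0.12. With the length trend, 2 passed beside 2.19%: Ndufa5 (0.55, edgeR adjusted p = 0.045) and Ndufs7, which carries an iron-sulfur cluster of complex I (0.35, edgeR adjusted p = 0.0473). Ndufs7 had 138, 118, 126, 158 and 127 CPM on western and 105, 112, 93.3, 93.2 and 117 CPM on high-fat diet, with no overlap. For Ndufa5 the western-diet values of 122, 73.5, 81.1, 128 and 77.4 CPM reached into the high-fat range of 47.6 to 81.1 CPM. The next by p were Cox5a, a matrix-side subunit of complex IV (0.29), Atp5d (0.32) and Uqcr10 (0.32). At unadjusted p under 0.05 there were 16 of the 91 (17.6%), beside 15.1% of all genes. Western-diet control D was the highest library for both Ndufs7 and Ndufa5. Without it the median was 0.06 with 62 positive, and 6 of the 91 had an unadjusted p under 0.05 (6.59%, beside 13.4% of all genes). The count was also 6 without high-fat control C. With the trend over the principal transcript's length, edgeR called Ndufa5, Ndufs7, Cox5a and Uqcr10, and 314 of all 13533 genes. Clec4g, an endothelial marker, fell on western diet in these controls (-0.72, edgeR adjusted p = 0.00486), and its part in the result was not tested.

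Among Plvap knockouts, 4 genes were higher on western than on high-fat diet and none was lower: 4 of 91, beside 8.45% of all genes (4.43% in the higher direction). Cox6c, a small subunit of complex IV, had 647, 772, 706 and 684 CPM on western and 508, 487, 584, 477 and 378.5 CPM on high-fat diet. The groups did not overlap, with a log2 fold change of 0.51 ± 0.15 (edgeR adjusted p = 0.0401). Ndufb8, a membrane-arm subunit of complex I, had 248, 289, 254 and 244 CPM on western and 186, 186, 231, 161 and 162 CPM on high-fat diet. Its log2 fold change was 0.47 ± 0.14 (edgeR adjusted p = 0.0401). Atp5f1, the stator subunit b of complex V, had 577, 640, 614 and 634 CPM against 476, 475, 477, 476 and 365 CPM (0.43 ± 0.13, edgeR adjusted p = 0.041). High-fat knockout E was the lowest library for both Cox6c and Atp5f1. Sdhaf3 had 13.3 to 16.8 CPM on western and 6.4 to 12.1 CPM on high-fat diet (0.55 ± 0.16, edgeR adjusted p = 0.0401). With the length trend, 6 passed beside 9.23%, the added ones being Atp5j and Uqcrq. Leaving out 1 library gave between 0 and 8 calls, with 0 without high-fat knockout E or any 1 of the 4 western-diet knockouts. Across all genes tested this comparison also ran with the GC content of the transcript (Spearman rho of -0.438 between log2 fold change and GC), and the endothelial markers Kdr (-0.49) and Clec4g (-0.63) fell. Of the 6 endothelial markers, 2 had a positive log2 fold change. The 6 summed to 143 to 164 CPM on western and 169 to 223 CPM on high-fat diet in knockouts. The part of the endothelial markers in the calls was not tested. With each library's GC trend taken out, 1 of the 91 was called, Ndufb8 (0.63, edgeR adjusted p = 0.0436), beside 2.15% of all genes. Cox6c then had 0.51, Atp5f1 0.49 and Sdhaf3 0.25, none of them called (edgeR adjusted p of 0.0705, 0.0581 and 0.291). None of these 4 genes passed in the test of high-fat minus western-diet Plvap effects.

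The 91 genes are short: their median deposited length is 1756 bases, against 4263 bases for the genes tested in the fasted table, and with the principal transcript 934 against 2861.5 bases. Log2 fold changes over all genes ran with length, with Spearman rho of -0.211 in fasted livers, 0.269 in refed livers, -0.291 in Cav1 knockouts, -0.147 on western and -0.111 on high-fat diet, and with the 91 genes left out the values ran from -0.286 to 0.264. Genes are not independent replicates, so these are descriptions. In each library, the median deviation of the 91 genes from their table's mean was set beside the length trend of all other genes, read at the lengths of the 91. With group means removed, Pearson's r over 46 libraries was 0.883 and Spearman's rho 0.796 (permutation p = 1e-05 for each, the smallest that 100000 resamples can give, and 5e-05 adjusted over 10 relations). Without the 2 libraries farthest from the median, Cav1 knockout B and refed knockout C, r was 0.773. Within tables r was 0.738 over 11 fasted libraries, 0.983 over 8 refed, 0.976 over 8 Cav1 and 0.491 over 19 diet libraries. The permutation p (from all orders for the tables of 8) was 0.0092, 2.5e-05, 0.0013 and 0.032. Spearman's rho was 0.736, 1.00, 0.81 and 0.586 (permutation p of 0.013, 5e-05, 0.022 and 0.0095). The permutations exchanged values between groups of unlike spread, such as Cav1 wild types (SD 0.059) and knockouts (SD 0.392), so all these p-values are approximate.

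**Figure D5:**
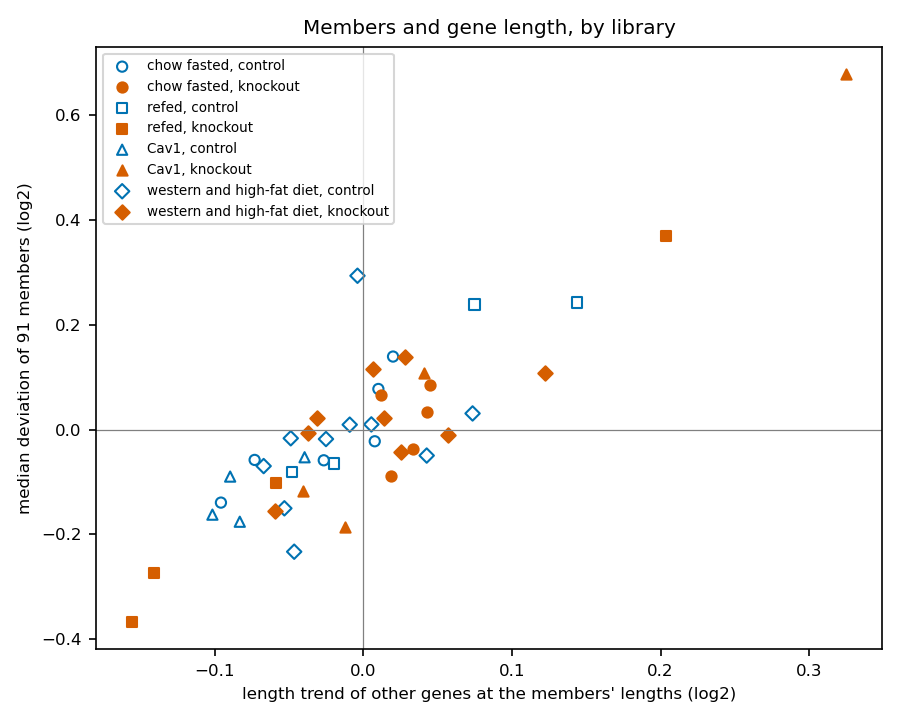
Median log2 deviation of the 91 genes in each library (vertical axis) against the length trend of all other genes at the lengths of the 91 (horizontal axis), 1 point per library, by table. Cav1 knockout B lies at the top right (0.678 and 0.325 on the log2 scale), and western-diet control D lies high (0.293) with a length trend near 0.

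Western-diet control D departed from this relation. Its 91 genes stood 0.293 above their table's mean on the log2 scale, 77 of them above, while its length trend was -0.0038. Its Cox6c value of 935 CPM was the highest of the 46 libraries, and the western-diet comparison without it stayed at 0 calls.

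The genes that varied most between replicates overlapped between tables with no library in common, most between the refed and Cav1 tables. In the refed table the largest SDs of log2 CPM within groups belonged to Cox7b (0.86), Atp5mpl (0.78), Atp5e (0.78) and Atp5l (0.77), and in the Cav1 table to Atp5e (0.99), Atp5mpl (0.93), Cox7b (0.92) and Atp5l (0.89). Atp5e is the epsilon subunit of the ATP synthase head, Atp5l and Atp5mpl are small membrane-domain subunits, and Cox7b is a small subunit of complex IV. Of the 15 most variable genes of each of these 2 tables, 13 were shared, and the SDs had a Spearman rho of 0.92 over the 91 genes. The other 5 pairs of tables shared 5 to 8 of 15, with rho from 0.49 to 0.71. Atp5e, Atp5l, Cox7b and Ndufb4 were among the 15 most variable in all 4 tables. Single libraries stood apart in the refed and Cav1 tables. Atp5e had 1040 CPM in Cav1 knockout B, beside 137 to 170 CPM in the other Cav1 knockouts. In refed knockout C it had 1100 CPM, beside 222 to 401 CPM in the other refed knockouts. The part of these libraries in the shared SDs was not tested. Atp5b had the lowest SD of the Cav1 table, 0.07. The SD ran against transcript length, with a Spearman rho of -0.47 in refed, -0.48 in Cav1, -0.18 in fasted and -0.30 in diet livers, and the genes share libraries and depth.

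Related genes were counted from lists by name. Of 13 subunits encoded in mitochondrial DNA, 7 or 8 were tested outside the refed table, where all 13 had 0 counts in every library. In all other libraries mt-Co1, the catalytic subunit of complex IV, had 90143 to 289631 counts, while mt-Co2, mt-Co3, mt-Atp6, mt-Atp8 and mt-Nd4l had at most 19. The mitochondrially encoded subunits together took 35440 ± 2300 CPM in the Cav1 experiment's wild types and 51920 ± 5550 CPM in fasted controls, and between 92.7% and 99.6% of control in the knockouts outside the refed table. The gene mt-Nd3, a complex I subunit, was the only one of them called in a knockout comparison without adjustment for length. It had 1 to 7 counts in wild types and 82 to 282 counts in Cav1 knockouts (log2 fold change 5.79 ± 0.49, edgeR adjusted p = 0.000113), and 0 to 6 counts in every other library. With the length trend, mt-Nd2 (-0.47), mt-Nd5 (-0.54) and mt-Cytb (-0.43), the cytochrome of complex III, were also called, lower in Cav1 knockouts (edgeR adjusted p of 0.0251, 0.0268 and 0.0212).

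Of 41 assembly factors outside the prefixes, 39 were tested and 0 passed in the 4 comparisons of Plvap knockouts with controls. Cox10, which makes haem for complex IV, rose in Cav1 knockouts (0.54, edgeR adjusted p = 0.0254). In knockouts on western against high-fat diet, Tmem126b rose (0.37) and Ecsit fell (-0.40), both complex I assembly factors. After the length trend was taken out Tmem126b remained called, Ecsit was not, and Pet100, which works on complex IV, was (0.61, edgeR adjusted p = 0.035). None of 14 regulators tested passed in the 5 knockout comparisons, and Ppargc1b, the coactivator PGC-1beta, fell in knockouts on western against high-fat diet (-1.07 ± 0.29, edgeR adjusted p = 0.0293). Yy1 was called there too with the length trend, higher by 0.41 (edgeR adjusted p = 0.0435). Of 19 genes of electron entry and carriers, Coq8a, needed for coenzyme Q synthesis, was higher on western diet in controls (0.71, edgeR adjusted p = 0.0261) and in knockouts (0.60, edgeR adjusted p = 0.0383), and 0 passed in the knockout comparisons. Of 13 TCA cycle genes, Idh3a rose in Cav1 knockouts (0.49, edgeR adjusted p = 0.0295), and Dld (0.48) and Sucla2 (0.40) were higher on western diet in knockouts. Of 77 mitochondrial ribosome genes tested, 0 passed in any knockout comparison. Their medians of 0.01 (fasted), -0.15 (refed), 0.02 (western), 0.04 (high-fat) and 0.27 (Cav1) stood beside medians of 0.02, -0.15, 0.02, 0.06 and 0.29 for the 91 genes.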

How the data were processed

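Liver RNA was isolated with the Monarch kit and made into NEBNext Ultra RNA libraries, per the labels' protocols. The authors deposited raw counts per gene in 4 tables, with gene coordinates and a length for each gene. Per the submitters' processing notes, STAR 2.7.8a, featureCounts 2.0, FastQC 0.11.9, MultiQC 1.10.1 and the build GRCm39 were used. The annotation release and the strand setting are not given in the sources used here, so reads of overlapping or antisense genes cannot be told apart. The deposited length (another unit of these files, in bases) sums the exons of all isoforms. Symbols were matched to 52083 of 55416 gene identifiers. Where a protocol text and a sample's own entry disagreed on the hours of fasting, the sample's entry was used. Each library is a labelled replicate. The labels do not number the animals, so p-values measure the spread between these samples. Among 85 pairs of libraries within groups, 0 held identical counts.

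Knockouts were compared with controls within each table with edgeR 4.0.16 (R 4.3.3), using TMM scaling, the low-count filter filterByExpr (minimum count 10, minimum total 15), a robust quasi-likelihood F-test and Benjamini-Hochberg adjustment over all genes tested, with calls at an adjusted p under 0.05. The 4 diet groups were fitted together. Differences of Plvap effects between tables were fitted on the 8 groups of that line joined. Alternatives were DESeq2 1.42.0, DESeq2 size factors, other filters, a fit without mitochondrially encoded genes, the replicate letter as a block, each library left out, and offsets that take out each library's trend over gene length (natural spline, 5 degrees of freedom, prior count 2). Trends over the length and GC content of the principal transcript were added after seeing the data. Levels are CPM with TMM scaling over all 46 libraries, except the 1 CPM limit and the isoform medians, scaled by library total alone. The heatmap and the exact permutation test of Plvap and Cav1 used log2(CPM + 0.5). Fits were tested on simulated data.

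Letters were taken to pair samples where every same-lettered pair of libraries deviated together. No label states such a pairing, and pairs with different letters were not computed. The correlations of deviations were 0.299, 0.247, 0.269 and 0.278 for letters A to D in refed livers, and in no other comparison were all above 0.1 (fasted -0.0281 to 0.343, western diet -0.233 to 0.124, high-fat diet -0.163 to 0.155, Cav1 0.00377 to 0.237).

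The 91 genes and all lists were chosen with earlier results of these data known. The genes named are, per comparison, those called (up to 12 per direction by smallest p) or, with fewer than 5 calls, the 5 with the smallest p. Further ones are the highest and lowest per complex in CPM per kilobase, tissue isoform pairs, genes with an unadjusted p under 0.05 in the same direction in most knockout comparisons, up to 3 called genes per comparison of each other list, genes next to the CPM limit, and Plvap and Cav1. Genes named for their spread between replicates, their gap between wild types and fasted controls, or a library that stood apart were chosen after their values were seen. The other lists are mitochondrially encoded subunits, assembly factors, regulators, electron carriers, TCA cycle, mitochondrial and cytosolic ribosome, and markers of hepatocytes, stellate, endothelial, Kupffer, bile duct, immune and red cells, muscle, fat and heart.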

Additional observations from a re-analysis of the deposited data

Results flagged for a closer look

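Within groups of 4 to 6 libraries, 22 of 210 sets of values (10.5%) had a highest or lowest library set apart by Dixon's gap criterion. Its chance rate of about 1 in 20 holds for independent sets chosen beforehand. Here some genes were chosen after their values were seen, and each complex is part of the sum over all subunits. The 10.5% can therefore not be set against that rate. Several of these sets share a library.

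Western-diet control D was high throughout. It had 5610 CPM summed over complex I (the other 4 controls 4270 to 4630), 3420 over complex III (2510 to 2680), 4950 over complex IV (3600 to 3830), 7010 over complex V (5330 to 5670) and 22200 over all subunits (16700 to 17600). Its 91 genes deviated by 0.293 on the log2 scale in the median (others -0.0698 to 0.0306), and its Cox6c stood at 935 CPM (523 to 624).

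Cav1 knockout B had 120 CPM of Cox7a2l (65.7 to 67.4 in the other knockouts), 14.6 of Sdhaf3 (5.94 to 6.84), 109 of Ndufs7 (71.3 to 76.0), 1040 of Atp5e (137 to 170) and 47.3 of Ndufb4 (7.98 to 11.48). Fasted control D had 782 CPM of Cox6c (544 to 630), 295 of Ndufb8 (211 to 231) and 703 of Atp5f1 (507 to 579). Among the Cav1 experiment's wild types, A had 38900 CPM over mitochondrially encoded subunits (34200 to 34400), and D had 674 CPM of Sdha (619 to 628).

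The remaining values belong to single genes. Western-diet knockout D had 130 CPM of Cox7a2l (116 to 118), and western-diet control A had 2.98 CPM of Cox7a1 (0.737 to 1.17). Refed control C was low in Sdha with 359 CPM (438 to 453), and refed control A was high in Ndufa5 with 84.6 CPM (58.6 to 62.4). High-fat knockout E was low in Atp5f1 with 365 CPM (475 to 477).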

How the results depend on the processing

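In the fasted comparison the 1 call among the 91 genes became 0 with the length trend, also when the trend was fitted without the 91, and 2 (Cox7a2l, and Ndufa5 lower) without a filter on low counts. It was 1 with the transcript length trend, but then Ndufa5 and not Cox7a2l. DESeq2 gave 1 call on high-fat diet, 3 between diets in controls and 8 between diets in knockouts. Without a filter the Cav1 comparison gave 6, and with a CPM filter of 1 the diets in knockouts gave 7. The length trend gave 2 between diets in controls, also when fitted without the 91, and the transcript length trend gave 4. Between diets in knockouts the GC trend gave 1, and the block with the length trend 1. Leaving out 1 library gave 0 to 1 calls in fasted and Cav1 livers, 0 to 8 between diets in knockouts and 0 to 2 for refed minus fasted. With every library kept, 2.25%, 4.68%, 8.45% and 0.0% of all genes were called in these comparisons. For the fits with 1 library left out, the share is given only for refed minus fasted without refed knockout C (0.117%). The cause of the changes in calls was not tested.

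Signs turned in Cav1 livers for Atp5g2 (0.14) and Ndufa5 (0.19). They were -0.03 and -0.06 with the length trend, the same when it was fitted without the 91, -0.04 and -0.07 with the replicate block and the length trend, and -0.12 and -0.07 with the transcript length trend. Plvap in Cav1 knockouts (-0.04) ran from -0.12 to 0.06 over left-out libraries. In refed livers the Plvap call was lost with the GC trend (-2.35) and without control D or any 1 knockout (adjusted p up to 0.171 by edgeR, log2 fold change -2.65 to -2.28).

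With the replicate block, the diets in knockouts gave 0 calls of 91 and 523 over all genes in place of 1143. In those tables letters were not taken to pair samples. The block alone changed no other count of calls among the 91, and with the length trend added its 1 call in fasted livers was Ndufa5, lower. All genes called went from 3 to 30 in refed and from 289 to 713 in fasted livers with the block. They went from 38 to 244 on high-fat diet and from 283 to 591 between diets in controls and from 1143 to 1695 between diets in knockouts with DESeq2, from 1143 to 291 there with the GC trend and to 1151 with the CPM filter, and from 607 to 1279 in Cav1 livers without a filter.

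Medians over the 91 genes ranged, over settings other than left-out libraries, from -0.04 to 0.03 in fasted, -0.19 to -0.08 in refed, -0.03 to 0.04 in western-diet, 0.05 to 0.07 in high-fat and 0.02 to 0.29 in Cav1 livers. The depth and number of these libraries gave median half-widths of the 95% intervals from 0.20 to 0.40.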

Other observations

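The proteins of the cytosolic ribosome, which translates most respiratory subunits, gave calls in 5 comparisons. Of 93 genes, 86 or 87 were tested. In fasted Plvap knockouts 5 of 86 were called, all higher, beside 2.25% of all genes. Among them were Rpl13 (log2 fold change 0.35), Rpl37a (0.38) and Rplp0 (0.34). Of the 86, 81 were positive, with a median of 0.24 (0.19 with the length trend). On high-fat diet 3 of 86 were called in knockouts, all higher, beside 0.281% of all genes. They were Rps13 (0.70), Rps6 (0.48) and Rpl29 (0.52), and the median over the 86 was 0.20 (0.17 with the length trend). In Cav1 knockouts 1 of 87 was called, Rps29, which rose (1.14), beside 4.68% of all genes. The median was 0.50 (0.32 with the length trend). None passed on western diet (median 0.13, and 0.10 with the length trend) or after refeeding (median -0.01, and 0.04 with it). Between the diets, 3 of 86 were called in controls, beside 2.09% of all genes, and 11 of 86 in knockouts, beside 8.45%. All were lower on western diet. Those in controls were Rps6 (-0.40), Rpl10 (-0.40) and Rps25 (-0.45), and those in knockouts were led by Rps6 (-0.68), Rps13 (-0.63) and Rps25 (-0.53). With the length trend, edgeR called 1 in fasted knockouts (Rpl13, 0.31), 5 higher and 1 lower (Rpl36al, -0.80) on high-fat diet and Rps29 in Cav1 knockouts. Between the diets, 4 in controls and 15 in knockouts were then lower on western diet. In these 5 comparisons the shares of all genes called with the length trend were 2.02%, 0.429%, 4.86%, 2.19% and 9.23%. Of the mitochondrial ribosome genes, Mrps18b was lower on western diet in knockouts (-0.52, edgeR adjusted p = 0.0482), a call lost with the length trend.

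Markers of other liver cells gave few calls in these comparisons. Of 8 stellate cell markers, 0 were called in any without adjustment, and Colec11 was lower on western diet in knockouts with the length trend (-0.58, edgeR adjusted p = 0.0414). No call was made without adjustment or with the length trend for Kupffer cell, bile duct, red cell, fat and heart markers. Albumin was higher in fasted, high-fat (1.13) and Cav1 knockouts (0.53), and Apoa1 in Cav1 knockouts (0.80). With the length trend Apoa1 remained called in Cav1 knockouts (0.60), Alb did not, and Lyve1, an endothelial marker, was lower there (-1.28, edgeR adjusted p = 0.0493). Lyve1 was higher in fasted knockouts (0.64). There 4 of the 6 endothelial markers were positive, and the 6 summed to 147 to 176 CPM, against 159 to 185 CPM in controls. Clec4g was lower on western diet in controls (-0.72), where 0 of the 6 were positive. Cd79a, a B cell gene, was higher in high-fat knockouts (1.81).

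The genes left out by the CPM limit, isoforms treated with complex IV aside, were nearly silent. A second identifier for Atp5o had 0 counts in all libraries, Cox8c 1, Cox7b2 3, Ndufa11b 5, Ndufs6b 133, Cox6c2 136 and Ndufb4c 218.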
